A study of Homo sapiens with 14 samples.

Results

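The transcriptomes of MDA-MB-231 cells given RBI2 and of MDA-MB-231 cells given CX-5461 were set side by side at the 120 min label. The comparison rests on 4 of the 14 libraries of the series, 2 replicates for each compound, chosen by their sample labels alone. MDA-MB-231 is an established human breast cancer cell line, and both compounds were given at 5 µM. The other 10 libraries are 2 controls, which the methods call untreated and the results call DMSO-treated, and 2 replicates of each compound at the 10 min and 30 min labels. The names of the deposited files carry the numbers 2, 10 and 30 where the labels say 10, 30 and 120 min. Statements on time therefore hold for the label. RBI2 is known by its code name, and CX-5461 is an established inhibitor of Pol I, the RNA polymerase that makes the large ribosomal RNA precursor. The question was which RNAs separate the compounds directly, and to which RNA class, transcript length and GC content they belong. One cell line was used, and nothing in the sources used here says that replicates were separate cultures, so p-values measure the spread between these libraries, which may be technical.

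The libraries were made from RNA captured on its poly(A) tail, the stretch of A that most mRNAs and many long noncoding RNAs (lncRNAs) receive at their 3′ end. Several abundant RNAs normally lack such a tail: the 7SL RNA of the signal recognition particle, the 7SK RNA that holds the elongation factor P-TEFb inactive, the RNA subunits of RNase MRP and RNase P, and the mRNAs of replication-dependent histones, which end in a stem-loop. Mitochondrial ribosomal RNAs carry short A tails, and RNAs marked for decay by the nuclear exosome can be given one. The authors removed reads that aligned to the ribosomal DNA repeat, so the levels of the ribosomal RNAs made from it were not analysed here.

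A few of the structural RNAs called higher are described first, as GENCODE 44 annotates them on GRCh38. RN7SL1 (chr14:49586580-49586878, plus strand) and RN7SL2 (chr14:49862550-49862849, minus strand) are single-exon copies of 7SL RNA with 295 of 300 aligned positions identical. Reads could be split between such copies, so their values are uncertain one by one.

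The last 60 bases of 5 other RNAs are shown with every run of A of the longest length in that window in capitals, since capture was by a run of A at the 3′ end. They are RN7SK (chr6:52995621-52995948, plus strand), RMRP (chr9:35657754-35658017, minus strand), RPPH1 (chr14:20343075-20343407, minus strand), SNORA73B (chr1:28508559-28508762, plus strand) and MT-RNR1 (chrM:648-1601, plus strand).
RN7SK: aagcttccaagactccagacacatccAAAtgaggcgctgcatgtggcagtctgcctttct
RMRP: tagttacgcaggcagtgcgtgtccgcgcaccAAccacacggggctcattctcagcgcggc
RPPH1: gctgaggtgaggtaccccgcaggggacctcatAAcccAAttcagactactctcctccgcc
SNORA73B: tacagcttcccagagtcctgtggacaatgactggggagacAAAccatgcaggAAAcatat
MT-RNR1: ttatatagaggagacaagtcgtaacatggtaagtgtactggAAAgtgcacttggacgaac
In these windows the annotated sequence held no run of A longer than 3 bases, and the longest run within the whole RNA was 2 to 3 bases for the first 4 and 6 bases for MT-RNR1.

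For mRNAs, the first 120 bases of the coding sequence are shown for the named protein-coding gene with the highest GC content, H1-4 (chr6:26156329-26157115, plus strand), and for that with the lowest, ZNF678 (chr1:227563543-227677443, plus strand). KMT2D (chr12:49018975-49060794, minus strand) and IL6ST (chr5:55935095-55995022, minus strand) were added after their values were seen. Each is from the transcript with a coding sequence that held the most reads, and G and C stand in capitals.
H1-4: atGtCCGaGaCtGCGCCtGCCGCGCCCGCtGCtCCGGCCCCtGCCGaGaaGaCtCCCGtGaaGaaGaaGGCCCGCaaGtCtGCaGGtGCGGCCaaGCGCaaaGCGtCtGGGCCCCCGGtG
KMT2D: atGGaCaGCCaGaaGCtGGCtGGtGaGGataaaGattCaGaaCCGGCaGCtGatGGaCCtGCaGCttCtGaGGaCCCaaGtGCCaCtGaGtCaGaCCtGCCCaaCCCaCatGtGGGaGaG
ZNF678: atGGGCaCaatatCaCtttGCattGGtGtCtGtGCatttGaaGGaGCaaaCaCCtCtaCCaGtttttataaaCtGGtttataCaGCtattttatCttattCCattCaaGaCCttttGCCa
IL6ST: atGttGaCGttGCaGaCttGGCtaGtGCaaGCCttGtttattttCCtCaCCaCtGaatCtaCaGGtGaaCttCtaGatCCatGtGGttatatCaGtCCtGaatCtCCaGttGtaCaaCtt
G and C made up 70.0% of this window in H1-4 and 56.7% in KMT2D, both called higher with RBI2, and 36.7% in ZNF678 and 41.7% in IL6ST, both called lower.

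The RBI2 libraries held 16890323 and 14112299 estimated reads. The CX-5461 libraries held 24849354 and 18078318, within a range of 14112299 to 24849354 over all 14. The GC content of the transcripts, weighted by reads, was 49.79% and 49.64% in the RBI2 libraries. It was 48.84% and 48.57% in the CX-5461 libraries, while the other 10 libraries lay between 48.03% and 49.63%. Transcript length, weighted alike, was 3216 and 3229 bases with RBI2 against 3060 and 3298 bases with CX-5461. Genes of the mitochondrial genome took 9.36% and 11.3% of the reads in the RBI2 libraries, against 8.68% and 8.55% for CX-5461, and control replicate 2 stood apart at 20.6%. The mesenchymal marker VIM lay between 2779 and 3138 CPM, read counts scaled to library size, in the 4 libraries. ESR1, PGR and CDH1, which mark luminal breast cells, were at 0.295 CPM or less in all 14 libraries. Other luminal markers were present in the 4 libraries, with KRT8 and KRT18 at 439 to 528 CPM. There ERBB2 was at 60.5 to 77.9 CPM and KRT19 at 59.2 to 70.2 CPM. EPCAM was at 9.44 to 11.2 CPM, GATA3 at 4.81 to 6.02 CPM and FOXA1 at 0.118 CPM or less. The leukocyte marker PTPRC was at 0.0725 CPM or less in the 4 libraries. CD68 was at 64.9 to 70.4 CPM.

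Of 15426 genes tested, 258 were called (1.67%), which required an adjusted p below 0.05 together with a log2 fold change of 1 or more in either direction. Without the adjustment of p, 3.67% passed. With RBI2, 196 genes were higher (1.27%) and 62 were lower (0.402%) than with CX-5461. Both sets held protein-coding genes, lncRNAs, TEC genes and pseudogenes, in shares that were not tested against each other. Among the 196 higher genes, 102 were lncRNAs, 22 were TEC genes (loci that await experimental evidence, nearly all with 1 exon), 51 were protein coding and 12 were pseudogenes. The other 9 were 3 genes of the class misc_RNA, which holds 7SL copies, 2 ribozymes, 2 snoRNAs, 1 snRNA and 1 mitochondrial rRNA. Thus lncRNAs made up 52.0% of the higher genes and 14.2% of the genes tested. Among the 62 lower genes, 56 (90.3%) were protein coding, 3 were lncRNAs, 2 were pseudogenes and 1 was a TEC gene.

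**Figure D1:**
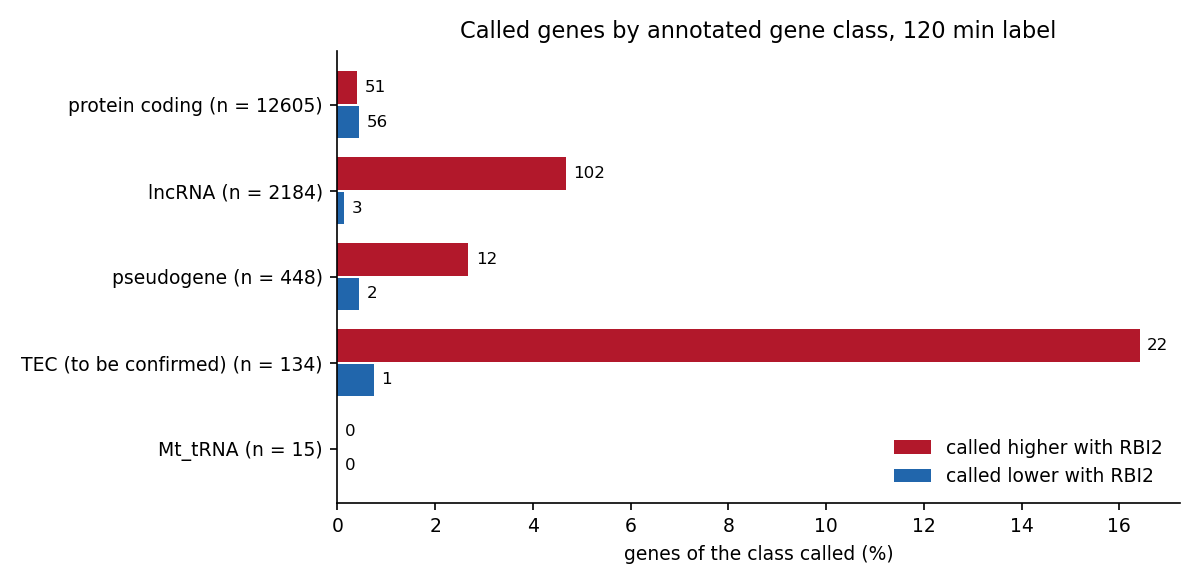
Share of the tested genes of each annotated class that were called higher (red) or lower (blue) with RBI2 than with CX-5461 at the 120 min label, with the number of called genes at each bar and the classes with at least 10 tested genes in rows. TEC genes (16.4%) and lncRNAs (4.67%) had the largest shares called higher, against 0.405% of protein-coding genes.

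Counted within each class, 4.67% of 2184 lncRNAs, 16.4% of 134 TEC genes, 2.68% of 448 pseudogenes and 0.405% of 12605 protein-coding genes were called higher. The shift went beyond the called genes. The log2 fold change was above 0 for 74.0% of lncRNAs and 82.8% of TEC genes, with medians of 0.29 and 0.77. For protein-coding genes it was above 0 in 46.1%, with a median of -0.03. At the 10 min and 30 min labels it was above 0 for 64.3% and 64.4% of lncRNAs. There the shares were 77.6% and 78.4% for TEC genes, and 48.9% and 49.2% for protein-coding genes. As shares of all reads, lncRNAs took 1.62% and 1.58% in the RBI2 libraries, against 1.17% and 1.11% for CX-5461, a ratio of means of 1.40. All of the other 10 libraries lay between 1.06% and 1.40%, so both RBI2 libraries were above them. TEC genes took 0.0353% ± 0.0016 with RBI2 and 0.0210% ± 0.0007 with CX-5461 (SD, n = 2 each). Reads of retained-intron transcripts overlapped between the compounds, with means of 4.46% ± 0.20 and 4.30% ± 0.15. Reads of transcripts annotated for nonsense-mediated decay were at 3.22% in both RBI2 libraries and 3.47% and 3.43% with CX-5461. These shares were not tested, and an exact permutation test of 2 against 2 libraries cannot go below p = 0.33.

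The genes called higher were mostly of low level. In 135 of the 196 the mean of the higher group was under 5 CPM, as it was in 15 of the 62 lower genes and in 4606 of the 15426 tested. The median of that mean was 2.41 CPM for the higher genes, 19.5 CPM for the lower genes and 19.4 CPM over all genes tested. Of all genes tested, 3.81% of those with 1 to 5 CPM were called higher against 0.168% of those with at least 100 CPM. The transcript with most reads had a single exon in 39.3% of the higher genes and in 8.14% of the genes tested. Within the lncRNA and TEC genes alone these shares were 46.0% and 28.8%. A protein-coding gene on the same strand overlapped 21.4% of the higher genes and 8.87% of the genes tested, and for such a gene the reads of the partner and its own cannot always be told apart.

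Of 28 listed small structural RNAs that normally have no poly(A) tail, 8 had enough reads to be tested. A gene could pass that filter through its RBI2 libraries alone, so the counts that follow are a description. Of the 8, 6 rose, beside 1.27% of all genes tested, and DESeq2 called 4. The log2 fold change of all 8 was above 0, beside 50.7% of all genes, with a median of 2.76 against 0.01. Their summed level was 111 and 174 CPM with RBI2 and 22.2 and 17.8 CPM with CX-5461.

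RN7SL2 was at 54.0 and 64.1 CPM with RBI2 and at 6.19 and 6.26 CPM with CX-5461. Both RBI2 libraries were thus above both CX-5461 libraries, as in 30.7% of all genes tested. They were also above the controls, which were at 13.8 and 4.15 CPM. The ratio of means was 9.49, with a log2 fold change of 3.24 ± 0.43 (SE, adjusted p = 0.0067 by edgeR). RN7SL1 was at 37.3 and 62.1 CPM with RBI2 and 8.23 and 6.90 CPM with CX-5461, with a log2 fold change of 2.71 ± 0.60 (adjusted p = 0.0174). In RN7SK the levels were 8.85 and 21.7 CPM with RBI2 and 2.57 and 1.45 CPM with CX-5461. The spread between its RBI2 replicates was wide, and the log2 fold change was 2.89 ± 0.44 (adjusted p = 0.00692).

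RPPH1, the RNA of RNase P, which trims the 5′ ends of tRNAs, was at 3.25 and 8.19 CPM with RBI2 and at 1.67 and 0.985 CPM with CX-5461 (log2 fold change 2.06 ± 0.54, adjusted p = 0.0284). SNORA73B, a small nucleolar RNA inside the SNHG3 gene, was at 1.18 and 0.870 CPM against 0.204 and 0.0579 CPM, and was not called without CX-5461 replicate 2 or either RBI2 replicate (adjusted p of up to 0.125). RNA5S1, a copy of the 5S ribosomal RNA gene named after its values were seen, was at 0.413 and 2.54 CPM against 0.163 and 0.116 CPM. It was not called (log2 fold change 3.27 ± 1.11, adjusted p = 0.0686). RMRP, the RNA of RNase MRP, which cuts the ribosomal RNA precursor, was at 1.18 and 8.92 CPM with RBI2 against 0.448 and 0 CPM with CX-5461, where 11 reads were counted in all. Its call rested on few libraries, and RBI2 replicate 2 stood far above replicate 1. RMRP was not called without any one of 10 of the 14 libraries, with a log2 fold change from 2.21 to 9.35 and an adjusted p of up to 0.36. Its call was also lost with the offset for transcript length (adjusted p = 0.0819), without reads of retained-intron and nonsense-mediated-decay transcripts (0.0571) and with the replicate block (0.0588). DESeq2 gave no adjusted p for RMRP and SNORA73B. RPPH1 was not called with the block and the GC content and length correction together (adjusted p = 0.0509). Without CX-5461 replicate 2 or RBI2 replicate 2, neither RN7SL2 nor RN7SK was called (adjusted p of up to 0.0677 for both). RN7SL1 and RPPH1 were not called without any one of the 4 libraries (adjusted p of up to 0.129 and 0.222).

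MT-RNR1, the small-subunit ribosomal RNA of the mitochondrion, moved the same way at a far higher level. It was at 2451 and 3239 CPM with RBI2 and at 758 and 673 CPM with CX-5461, and at 717 and 909 CPM in the controls. Both RBI2 libraries labelled 120 min lay above all of the other 12, with a log2 fold change of 1.99 ± 0.23 (adjusted p = 0.0053). Without RBI2 replicate 2 the adjusted p was 0.0553. Its neighbour MT-RNR2, the large-subunit RNA, gave 6514 and 8271 CPM with RBI2 and 6467 and 6870 CPM with CX-5461, groups that overlap (log2 fold change 0.15 ± 0.25, adjusted p = 0.753). MT-RNR2 was named after its values were seen. Of 30 tested genes of the mitochondrial genome, 25 had a log2 fold change above 0, beside 50.7% of all genes, and MT-RNR1 was the member called, beside 1.67% of all genes.

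**Figure D2:**
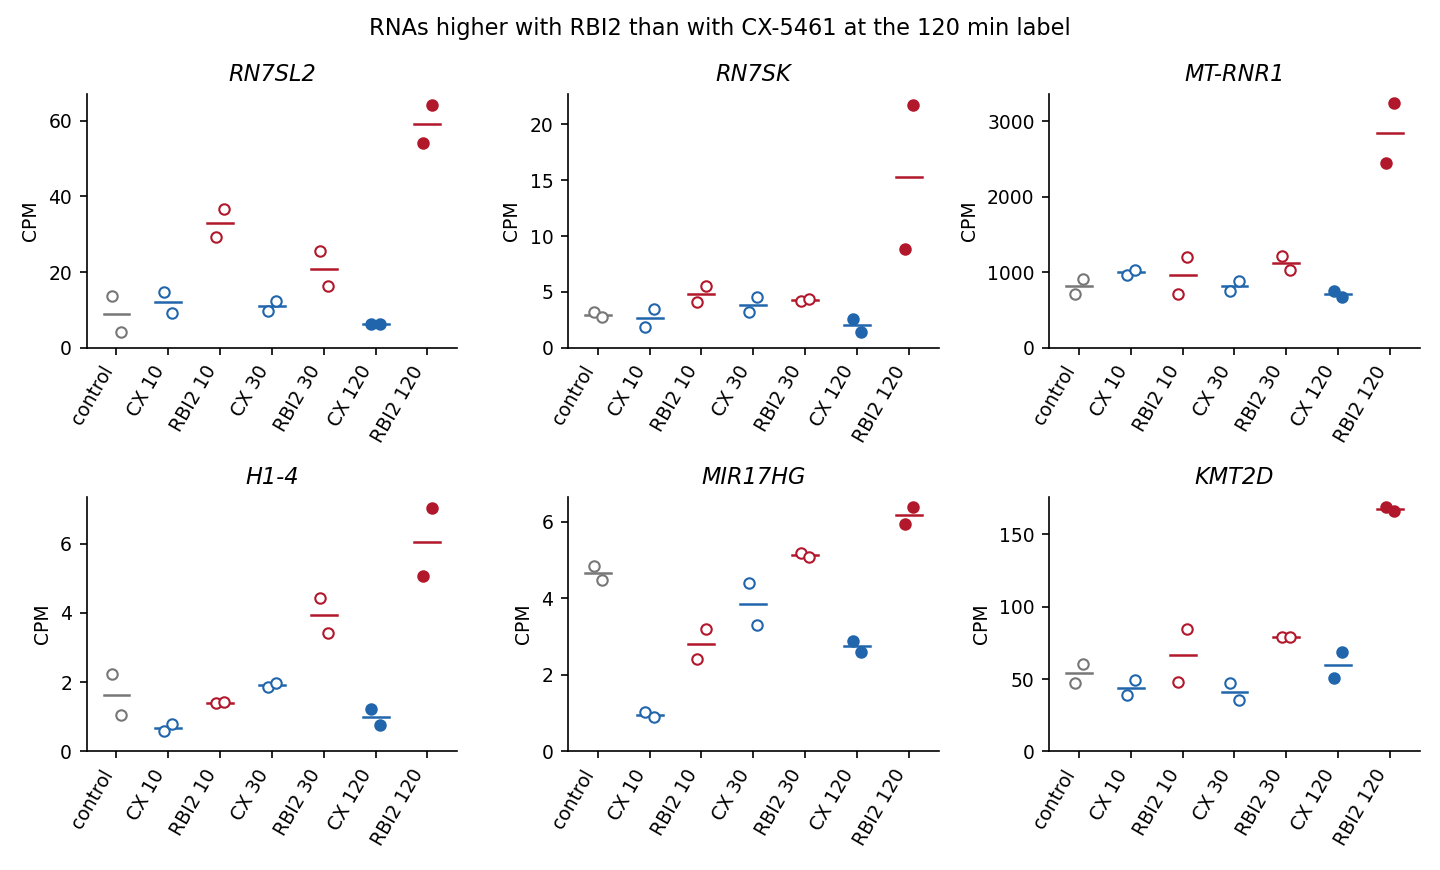
Level in CPM (linear axes from 0) of 6 RNAs in all 14 libraries, with 1 point per library, a line at the mean of each group, grey for the control, blue for CX-5461 and red for RBI2, and filled points for the 120 min label. In the 6 panels both RBI2 libraries labelled 120 min lie above both CX-5461 libraries, as they do in 30.7% of all genes tested. MT-RNR1 is at 2451 and 3239 CPM against 758 and 673 CPM.

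Replication-dependent histone genes, whose usual short mRNA ends in a stem-loop, were called in the higher direction alone. Of 68 such genes 24 had enough reads to be tested, which the RBI2 libraries alone could provide, so the counts are a description. Of the 24, 5 rose (H1-4, H2BC15, H2BC18, H4C1 and H4C16), beside 1.27% of all genes. In 20 the log2 fold change was above 0, beside 50.7% of all genes, with a median of 0.67. H1-4, which encodes a linker histone, was at 5.07 and 7.03 CPM with RBI2 and at 1.22 and 0.753 CPM with CX-5461. The controls were at 2.24 and 1.04 CPM, below both RBI2 libraries, and the log2 fold change between the compounds was 2.57 ± 0.34 (adjusted p = 0.0067). H4C1, which encodes core histone H4, was at 3.42 and 3.33 CPM against 0.693 and 0.290 CPM (log2 fold change 2.71 ± 0.51, adjusted p = 0.0115). H4C16 was at 0.767 and 0.797 CPM against 0.245 and 0.0579 CPM, with 24 and 7 reads in the groups. H2BC18 was at 4.01 and 5.65 CPM against 1.26 and 1.85 CPM, and H2BC15 at 3.42 and 2.97 CPM against 1.55 and 1.27 CPM. The read-weighted transcript length of H2BC15 was 3111 bases and its transcript with most reads had 3 exons, which is not the short mRNA with a single exon. That length was 1761 bases for H2BC18, which a gene on the opposite strand overlaps, and 972 bases for H4C16, each with a single exon in the transcript with most reads. The calls of the 5 histone genes were lost without CX-5461 replicate 2 or RBI2 replicate 2, with an adjusted p of up to 0.164. Those of H4C1 and H4C16 were also lost without RBI2 replicate 1, that of H4C16 without either RBI2 library of the 30 min label, and those of H2BC15 and H2BC18 without any one of the 4 libraries. With DESeq2 3 histone genes were called, and H4C1 and H4C16 had no adjusted p. With the offset for transcript length H2BC15 and H2BC18 were not called (adjusted p = 0.0761 and 0.104), nor was H2BC15 without reads of retained-intron and nonsense-mediated-decay transcripts (adjusted p = 0.115).

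Of 15 tested nuclear-retained lncRNAs, 4 rose, beside 1.27% of all genes. The log2 fold change was above 0 in 12, beside 50.7% of all genes, with a median of 0.37 and a lowest value of -0.35. MALAT1, a long RNA of nuclear speckles whose 3′ end is a triple helix in place of a tail, was at 3725 and 3953 CPM with RBI2 and 1688 and 1383 CPM with CX-5461. Both RBI2 libraries were above all of the other 12, of which the highest was at 2820 CPM, and the log2 fold change was 1.32 ± 0.17 (adjusted p = 0.0067). NEAT1, the scaffold of paraspeckles, was at 197 and 179 CPM against 134 and 134 CPM. Its log2 fold change of 0.49 ± 0.14 lay under the fold limit (adjusted p = 0.041). GABPB1-AS1 was at 45.1 and 46.7 CPM against 22.7 and 21.0 CPM (log2 fold change 1.07 ± 0.10, adjusted p = 0.00206). It was called whichever library was left out, but the offset for transcript length left it at 0.32 (adjusted p = 0.252). The GC content and length correction left it at 0.97, and at 0.98 with the replicate block added, both under the fold limit.

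MIR17HG, the host of the miR-17-92 cluster, was at 5.96 and 6.38 CPM with RBI2 and 2.89 and 2.61 CPM with CX-5461. The controls, at 4.85 and 4.47 CPM, lay between the compounds. MIR23AHG, the host of miR-23a, miR-27a and miR-24-2, was at 37.9 and 33.8 CPM against 12.02 and 10.7 CPM, with controls at 25.1 and 12.2 CPM (log2 fold change 1.66 ± 0.25, adjusted p = 0.00692). KCNQ1OT1, an antisense RNA that is 1 exon of 91667 bases, was at 25.8 and 22.1 CPM against 11.9 and 10.6 CPM (log2 fold change 1.09 ± 0.15). Corrected for GC content and length, its value turned to -0.23 (adjusted p = 0.228). KCNQ1OT1 is far longer than any protein-coding gene tested (at most 26426 bases), so its corrected value is uncertain. MALAT1, MIR17HG, KCNQ1OT1 and MIR23AHG lost their calls without CX-5461 replicate 2, RBI2 replicate 1 or RBI2 replicate 2 (adjusted p of up to 0.0677). MIR23AHG, GABPB1-AS1 and NEAT1 were named after their values were seen. Among the lncRNAs without a symbol, ENSG00000228434 was at 11.5 and 10.9 CPM against 2.12 and 2.55 CPM (log2 fold change 2.27 ± 0.24, adjusted p = 0.00352) and was called whichever library was left out. ENSG00000264772 was at 11.4 and 6.96 CPM against 1.83 and 1.56 CPM, and lies over SENP3-EIF4A1, EIF4A1 and CD68, so its reads are uncertain. The TEC gene ENSG00000280138 was at 12.9 and 13.0 CPM against 4.16 and 3.48 CPM (log2 fold change 1.75 ± 0.20), on the locus of VPS37B, and ENSG00000280152, on that of BCAR1, was at 7.49 and 6.23 CPM against 1.79 and 1.91 CPM. ENSG00000280138 was not called without RBI2 replicate 2 (adjusted p = 0.0553), nor ENSG00000280152 without that library, RBI2 replicate 1 or CX-5461 replicate 2, and ENSG00000264772 was not called without any one of the 4 libraries.

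The named pseudogenes and joined gene models share sequence with other genes, so their counts are uncertain, and no other assignment of their reads was tested. RPL3P4, a processed copy of the ribosomal protein gene RPL3, was at 44.3 and 21.0 CPM with RBI2 and had no reads in both CX-5461 libraries, which is at least 471-fold higher against a floor of 3 reads over the group. It was at 0 and 7.38 CPM with CX-5461 at the 10 min label and at 13.5 and 25.2 CPM in the controls. SEPTIN14P6 was at 6.25 and 3.77 CPM against 1.47 and 1.97 CPM. In the other direction, ENSG00000285920, which overlaps OIP5-AS1 and NUSAP1, was at 11.2 and 9.10 CPM with CX-5461 and had no reads with RBI2, at least 106-fold lower by the same floor, and no reads in the controls. TMED7-TICAM2, which joins TMED7 and TICAM2, was at 0.590 and 0 CPM with RBI2 and 8.23 and 9.62 CPM with CX-5461. ENSG00000284906, which overlaps ARHGAP11B, was at 10.6 and 11.6 CPM against 3.18 and 1.68 CPM, and its log2 fold change of 2.15 became 0.26 when reads of retained-intron and nonsense-mediated-decay transcripts were left out. RPL3P4, SEPTIN14P6, ENSG00000285920 and TMED7-TICAM2 were not called without any one of the 4 libraries (adjusted p of up to 0.184). The call of ENSG00000285920 was also lost with DESeq2, without reads of retained-intron and nonsense-mediated-decay transcripts, and without either CX-5461 library of the 10 min label, and that of TMED7-TICAM2 without any one of the RBI2 libraries of the 10 min and 30 min labels. The offset for transcript length ended the calls of ENSG00000285920 and TMED7-TICAM2 (adjusted p = 0.0717 and 0.225). ENSG00000284906 was not called without CX-5461 replicate 2 or either RBI2 replicate.

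Of the 51 protein-coding genes that were higher, 34 had a mean under 5 CPM in the higher group, beside 2355 of the 12605 protein-coding genes tested, and KMT2D, FOXK1 and SFXN3 were the most abundant. KMT2D, a histone H3 lysine 4 methyltransferase, was at 169 and 166 CPM with RBI2 and 50.6 and 68.7 CPM with CX-5461, and at 47.4 and 60.5 CPM in the controls. Both RBI2 libraries lay above all of the other 12, of which the highest was at 84.9 CPM, and the log2 fold change was 1.49 ± 0.25 (adjusted p = 0.00826). Its transcript is 20377 bases long with 59.7% GC, and its log2 fold change corrected for GC content and length was 0.90, under the fold limit. Of 62 tested chromatin-modifying genes KMT2D was the one called, a share near the 1.67% of all genes, and 46 had a log2 fold change above 0, beside 50.7%. At an adjusted p under 0.05 with no fold limit 14 were higher and 1 lower, beside 5.28% and 10.9% of all genes. FOXK1, a forkhead transcription factor named after its values were seen, was at 204 and 194 CPM against 77.3 and 94.7 CPM (log2 fold change 1.21 ± 0.16, adjusted p = 0.0067), and 0.89 with the same correction. SFXN3, a mitochondrial carrier of the sideroflexin family, was at 60.8 and 65.4 CPM against 12.4 and 11.2 CPM (log2 fold change 2.41 ± 0.37, adjusted p = 0.00692). A transcript without a defined coding sequence held 57.4% of the SFXN3 reads. KMT2D and SFXN3 were not called without CX-5461 replicate 2, RBI2 replicate 1 or RBI2 replicate 2 (adjusted p of up to 0.0677 for both), nor was KMT2D with the offset for transcript length (adjusted p = 0.0646), and FOXK1 not without either RBI2 replicate.

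The 62 lower genes were mainly long mRNAs poor in G and C. IL6ST, which encodes gp130, the shared signalling receptor of the interleukin-6 family, was at 52.5 and 47.8 CPM with RBI2 and at 142 and 192 CPM with CX-5461. The controls were far apart at 71.7 and 162 CPM, and both were above the RBI2 libraries. The log2 fold change was -1.73 ± 0.34 (adjusted p = 0.013). Of the IL6ST reads, 99.5% were assigned to a transcript annotated for nonsense-mediated decay, so the protein-coding transcripts held few. CLCN3, a chloride and proton exchanger of endosomes, was at 7.91 and 9.64 CPM against 24.7 and 38.8 CPM (log2 fold change -1.85 ± 0.39, adjusted p = 0.015). RYK, a Wnt receptor, was at 6.49 and 3.26 CPM against 16.9 and 20.2 CPM (log2 fold change -1.90 ± 0.27, adjusted p = 0.0067). With 2730 bases and 44.2% GC it is neither long nor poor in GC.

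ITSN2, a scaffold of endocytosis, was at 14.2 and 12.5 CPM against 38.3 and 47.8 CPM, and the controls at 13.4 and 26.0 CPM lay nearer to RBI2. BLTP1, a lipid transfer protein, was at 16.4 and 19.2 CPM against 31.7 and 52.3 CPM. ENSG00000285976, on the locus of the phosphatase PTP4A1, was at 34.2 and 17.5 CPM against 57.4 and 67.6 CPM. The lncRNA ENSG00000258964, between and over HIF1A and SNAPC1, was at 4.84 and 8.12 CPM against 15.5 and 19.4 CPM. ENSG00000258964 had no reads with RBI2 at the 30 min label and 10.1 and 6.55 CPM with CX-5461. The calls of IL6ST, CLCN3, ITSN2, ENSG00000285976 and ENSG00000258964 were lost without CX-5461 replicate 2, RBI2 replicate 1 or RBI2 replicate 2 (adjusted p of up to 0.124), and that of RYK without CX-5461 replicate 2 or RBI2 replicate 2. BLTP1 was called without 5 of the 14 libraries and not without the other 9 (adjusted p of up to 0.29). With the offset for transcript length RYK, CLCN3 and BLTP1 were not called (adjusted p = 0.0828, 0.0589 and 0.0881). Without reads of retained-intron and nonsense-mediated-decay transcripts RYK, ENSG00000285976 and BLTP1 were not called (adjusted p = 0.0736, 0.236 and 0.0669). IL6ST had no value in that setting. The GC content and length correction, with or without the replicate block, left ENSG00000285976 at -0.88 or -0.89 and BLTP1 at -0.98 or -0.99, under the fold limit.

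ID2, an inhibitor of basic helix-loop-helix transcription factors and a target of BMP signalling, is not of this kind, with 1247 bases and 42.2% GC. It was at 4.60 and 5.36 CPM with RBI2 and at 16.8 and 17.2 CPM with CX-5461, while the controls were at 5.28 and 5.91 CPM. The RBI2 libraries thus lay beside the controls and the CX-5461 libraries above them. The log2 fold change was -1.78 ± 0.12 between the compounds (adjusted p = 0.000232) and 1.61 for CX-5461 against control (adjusted p = 0.000598). It was called whichever library was left out. ID2 was the member called among 17 tested BMP and TGF-beta feedback genes, beside 0.402% of all genes called lower.

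**Figure D3:**
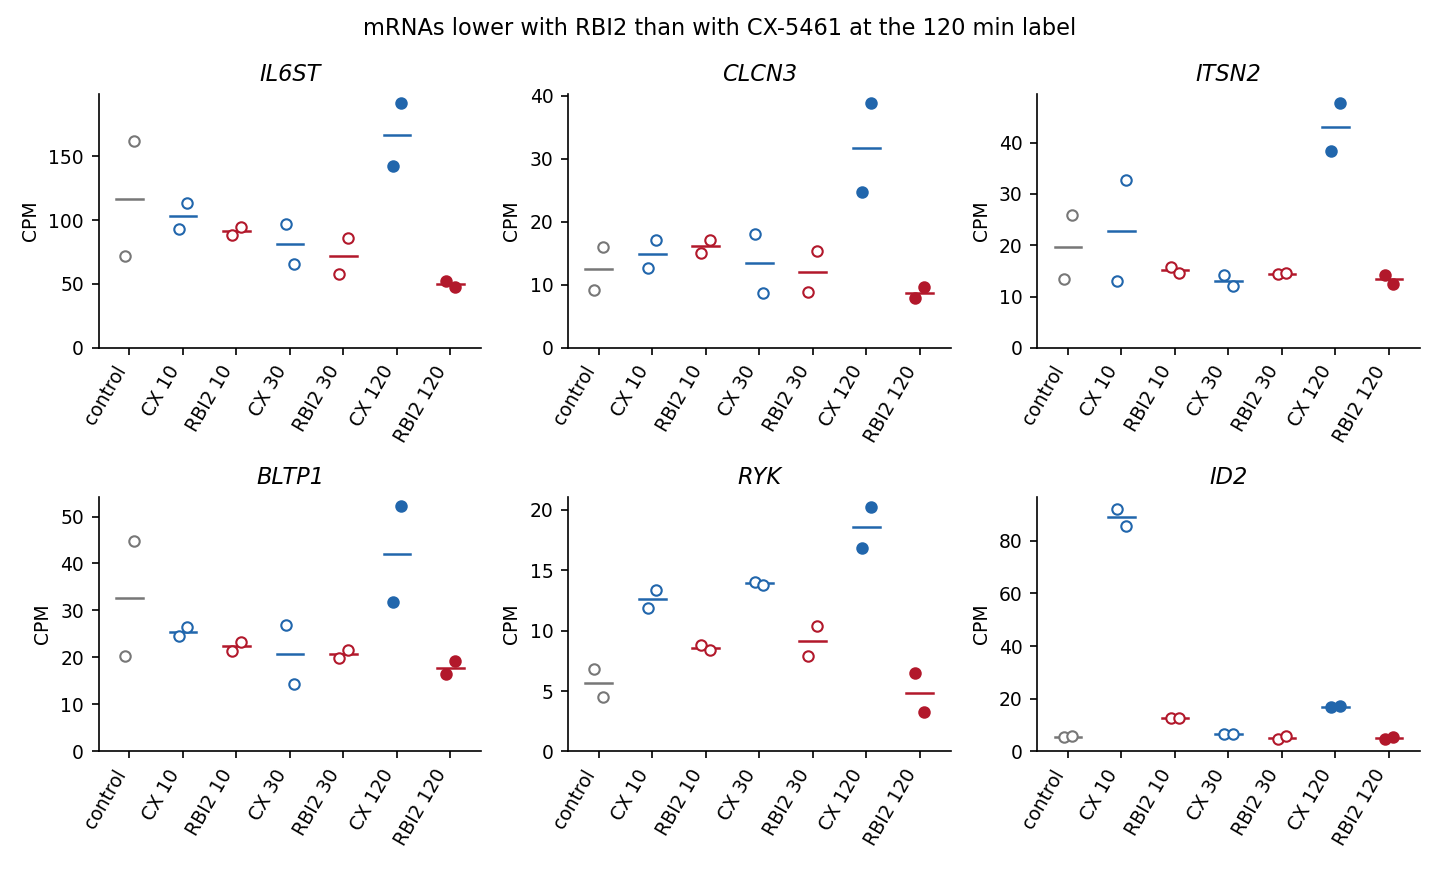
Level in CPM (linear axes from 0) of 6 mRNAs in all 14 libraries, with 1 point per library, a line at the mean of each group, grey for the control, blue for CX-5461 and red for RBI2, and filled points for the 120 min label. Both CX-5461 libraries labelled 120 min lie above both RBI2 libraries in the 6 panels, as they do in 33% of all genes tested. ID2 is at 16.8 and 17.2 CPM against 4.60 and 5.36 CPM, and reached 92.3 and 85.6 CPM with CX-5461 at the 10 min label.

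Transcript length and GC content were taken as read-weighted means over the transcripts of a gene. The median was 2606 bases and 48.0% GC over all genes tested, 2674 bases and 49.0% for the higher genes, and 6020 bases and 37.99% for the lower genes. For protein-coding genes alone it was 2876 bases and 48.3% over those tested, 3805 bases and 52.5% for the 51 higher genes, and 6757 bases and 37.7% for the 56 lower genes. The lower genes were thus longer and poorer in GC at the median than the mRNAs tested. With no fold limit, 814 genes were higher (5.28%) and 1676 lower (10.9%), with a median GC content of 55.6% and 39.998%. Their median lengths were 4069 and 3719 bases, so without this limit the lower genes were not longer at the median than the higher genes.

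The relation to GC content ran through all mRNAs. In the 1261 protein-coding genes with the lowest GC content, 10 equal bins being made, of at most 38.5%, the median log2 fold change was -0.44, with 31 genes called lower and 2 higher. In the bin with the highest GC content, from 61.7%, it was 0.19, with 4 genes called higher and no gene called lower. In each of the 4 pairs of 1 RBI2 and 1 CX-5461 library the median of the lowest bin was below 0 (-0.51 to -0.35) and that of the highest above 0 (0.10 to 0.26). At the other labels the same bins gave 0.04 and -0.11 (10 min) and -0.01 and 0.01 (30 min). The read-weighted GC content there was 48.9% and 48.99% with RBI2 against 49.1% in both CX-5461 libraries (10 min), and 49.5% and 49.4% against 49.1% and 49.6% (30 min). The part of the library's GC content in these differences was not tested.

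Length did not behave alike in the pairs. In the longest bin, from 6427 bases, 29 genes were called lower and 13 higher, and the median log2 fold change was -0.04. The median of this bin was 0.07 and 0.10 in the pairs with CX-5461 replicate 1 and -0.19 and -0.15 in those with CX-5461 replicate 2, whose read-weighted transcript length was the longest of the 14 libraries. Among protein-coding genes of at least 5000 bases, 33 of 630 with a GC content under 40% were called lower (5.24%) and 6 of 1814 with a higher GC content (0.331%). Among shorter genes these were 6 of 1443 (0.416%) and 11 of 8718 (0.126%). Calls in the lower direction were thus concentrated in mRNAs that were both long and poor in GC.

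**Figure D4:**
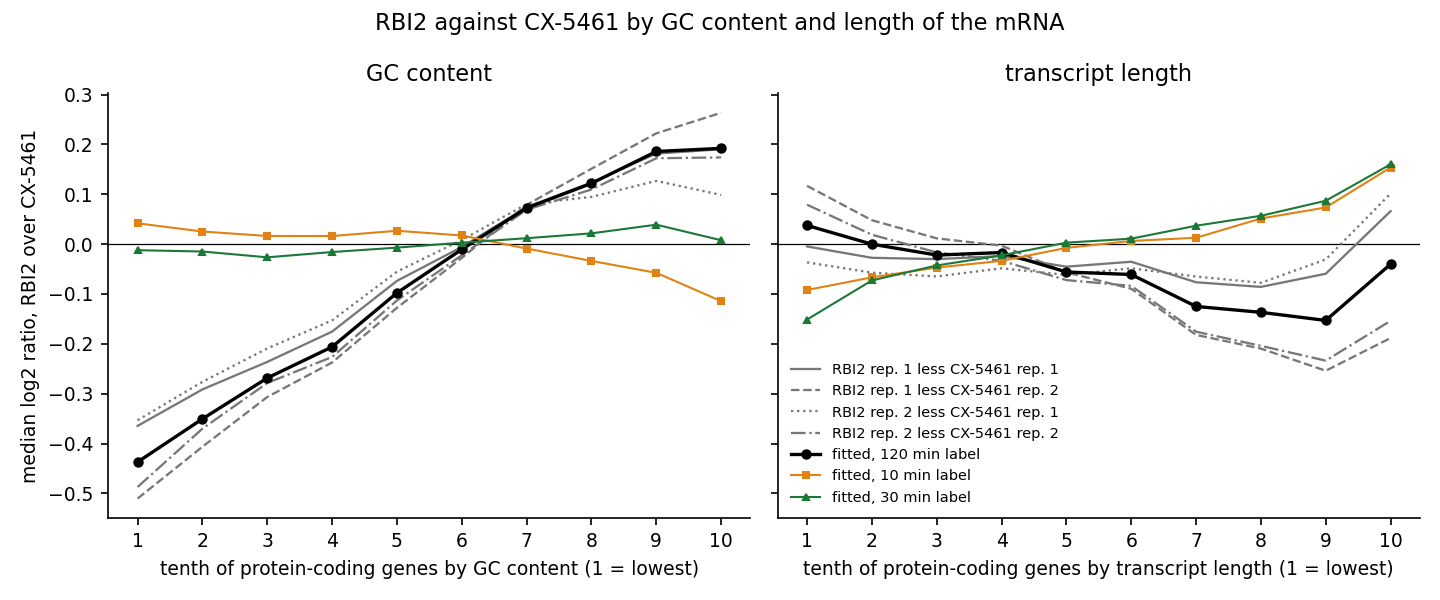
Median log2 ratio of RBI2 over CX-5461 in 10 equal bins of the protein-coding genes ordered by GC content (left) or transcript length (right), with the fitted values at the 120 min label in black, at 10 min in orange and at 30 min in green, and the 4 single library pairs labelled 120 min in grey. The 4 pairs rise together with GC content from at most -0.35 to at least 0.10, and they split by CX-5461 replicate over length.

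The split of the calls also depended on the same libraries. Without CX-5461 replicate 1, 89 genes were higher and 170 lower, and without CX-5461 replicate 2, 24 were higher and 1 lower. Without RBI2 replicate 1 the counts were 16 and 3, and without RBI2 replicate 2 they were 4 and 1, fits in which a single library stands for a group and is assumed to vary like the others. Correcting for GC content and length gave 196 higher and 26 lower genes, 88.3% higher against 76.0%, and 143 and 21 of these were among the 196 and 62. The median length of the lower genes was then 2609 bases. All 62 lower genes and 194 of the 196 higher genes kept their direction under this correction. Every called gene also kept its direction when any one library was left out. The groups did not overlap in any called gene, so that outcome was largely fixed in advance. DESeq2 with the same filter and limits called 103 higher and 50 lower, of which 89 and 42 were among the 196 and 62.

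Against the controls, the 2 control libraries being shared by both values, the median log2 fold change of the 196 higher genes was 1.05 with RBI2 and -0.47 with CX-5461. That of the 62 lower genes was -0.88 with RBI2 and 0.27 with CX-5461. Over all genes tested the medians were 0.01 and 0.06. The genes were chosen with the same RBI2 and CX-5461 libraries that enter these values, so the opposite signs follow in part from the choice and are a description. In RBI2 against control 280 genes were called (1.82%), 219 higher (1.42%) and 61 lower (0.395%). Of the 196 higher genes 75 were called higher there, and of the 62 lower genes 14 were called lower. In CX-5461 against control 7 genes were called (0.0454%), 4 higher (0.0259%) and 3 lower (0.0194%), of which ID2 was the member of these sets. Values against control share a library, control replicate 2, that stood apart in mitochondrial reads and GC content.

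The log2 fold changes at the other labels come from libraries outside the contrast that chose the genes, although all 14 libraries shared the filter and the estimate of spread. RBI2 against CX-5461 gave 160 called genes (1.04%) at the 10 min label, 98 higher (0.635%) and 62 lower (0.402%), and 2 (0.013%) at the 30 min label, both lower. Of the 196 genes higher at the 120 min label, 166 (84.7%) had a log2 fold change above 0 at the 10 min label, beside 51.5% of all genes tested, with a median of 0.60. At the 30 min label 156 (79.6%, beside 51.7%) were above 0, with a median of 0.51. Within lncRNA and TEC genes alone these shares were 86.3% beside 65.1% (10 min) and 78.2% beside 65.2% (30 min). Of the 62 lower genes, 36 (58.1%, beside 48.3%) and 35 (56.5%, beside 48.1%) were below 0, with medians of -0.02 and -0.03. RN7SL2 was at 29.3 and 36.8 CPM with RBI2 and 14.7 and 9.28 CPM with CX-5461 at the 10 min label, and at 25.5 and 16.2 CPM against 9.65 and 12.5 CPM at the 30 min label. Both RBI2 libraries were above both CX-5461 libraries at each label, with an adjusted p of 0.0926 and 0.634 at the earlier labels. Such a separation held for 30.7% of all genes tested at the 120 min label and was not counted at the other labels.

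**Figure D5:**
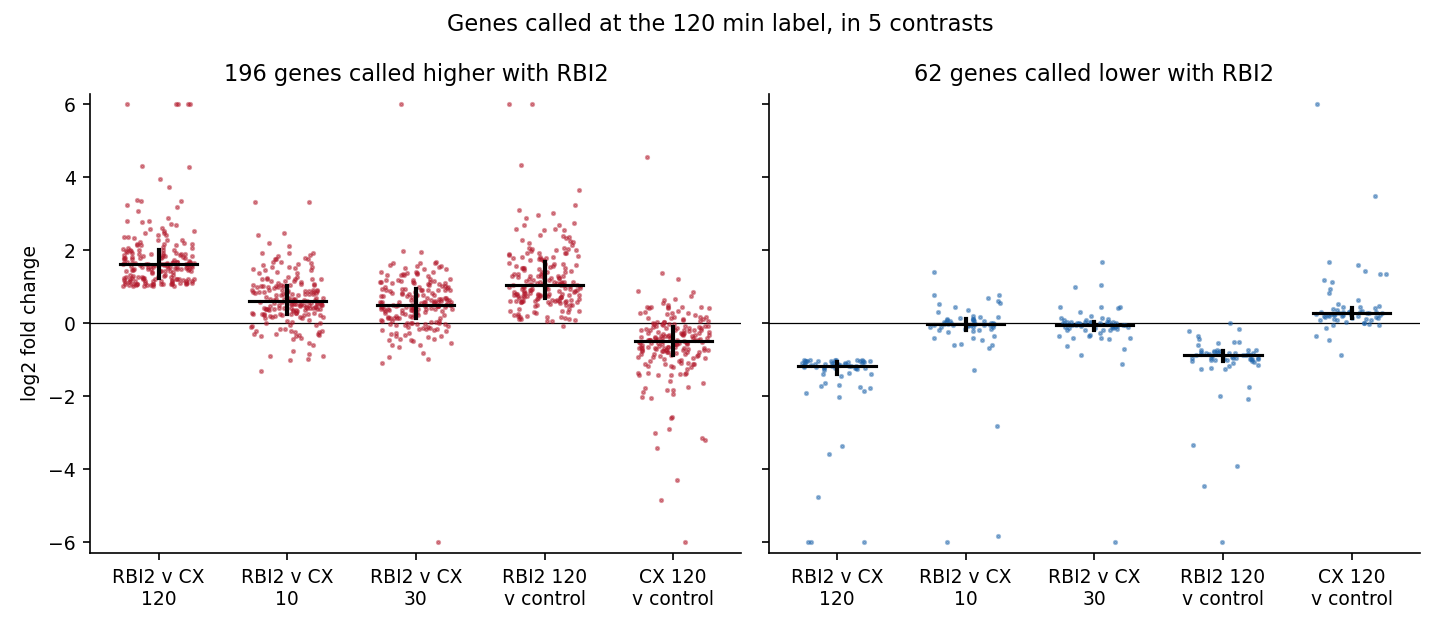
Log2 fold change of the 196 genes called higher (left) and the 62 called lower (right) with RBI2 at the 120 min label, in RBI2 against CX-5461 at the 3 labels and in each compound against control, with points for genes, a long bar at the median and a thick line over the middle quartiles, and points beyond 6 in size drawn at 6. The first column chose the genes, the controls are shared by the last 2 columns, and the medians of the higher genes are 0.60 and 0.51 at the 10 min and 30 min labels.

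The difference between labels was tested directly. For 209 genes (1.35%) the difference between RBI2 and CX-5461 at the 120 min label was not that at the 10 min label, with a log2 fold change more positive in 63 (0.408%) and more negative in 146 (0.946%). Of the 196 higher genes, 12 had a more positive value at the 120 min label. Of the 62 lower genes, 11 had a more negative value there and 1, ID2, a less negative one. Against the 30 min label edgeR called 0 genes, 344 passed an unadjusted p with the fold limit, and DESeq2 called 21. The higher genes cannot therefore be called particular to the 120 min label.

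Of the 24 gene lists, 17 had no called member by edgeR among 657 genes, whose log2 fold changes lay between -1.04 and 1.08 with a median of 0.00. In these genes 1 was higher and 2 were lower at an unadjusted p with the fold limit, and DESeq2 called 1 higher and 1 lower. Of all 15426 genes tested, 445 were higher and 121 lower by the first of these limits, and DESeq2 called 103 and 50. The 17 lists include the protein side of ribosome synthesis. The counts with no fold limit that follow stand beside 5.28% of all genes higher and 10.9% lower. Of 84 cytosolic ribosomal protein genes 65 had a log2 fold change above 0, with a median of 0.05 and a range from -0.39 to 0.27, and no member passed an adjusted p of 0.05 at any fold. In the Pol I machinery (26 genes) 4 were higher and 3 lower with no fold limit, and in ribosome biogenesis factors (111 genes) 5 and 17. In the TRAMP and NEXT complexes and the nuclear exosome (22 genes), which tail and degrade nuclear RNA, 1 was higher and 4 were lower with no fold limit, with a median of -0.14. The snoRNA host genes (34) had 7 higher and no lower, with 29 above 0.

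The stress lists were among those without a called member. With no fold limit, and beside the same 5.28% and 10.9% of all genes, 3 immediate early genes were higher and 2 lower of 26, 2 and 2 of 25 p53 targets, 1 and 4 of 28 genes of the integrated stress response, and 1 and 7 of 29 heat shock and chaperone genes. DNA damage response and topoisomerase genes (46) had 3 higher and 14 lower, with a median of -0.22 and a median GC content of 44.2%. SR proteins and CLK kinases (21) had 5 lower and proteasome subunits (37) had 5 lower, with no higher member in either. Mitochondrial ribosomal proteins (77) had 4 lower, and nuclear-encoded oxidative phosphorylation subunits (80) had 3 lower. The defining markers of the cell line (8) had 1 higher and 1 lower, and the luminal (6) and blood, immune and endothelial markers (2 with enough reads) had no member past an adjusted p of 0.05.

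Among 450 zinc finger genes with numbered names, 5 were called, 2 higher and 3 lower, beside 1.67% of all genes, so the count is no result about the family. ZNF460 was at 5.43 and 6.16 CPM with RBI2 and 1.79 and 2.14 CPM with CX-5461 (log2 fold change 1.56 ± 0.24), and ZNF8 was higher as well. ZNF654 was at 3.60 and 2.17 CPM against 8.35 and 15.6 CPM (log2 fold change -2.02 ± 0.50). ZNF678 was at 4.07 and 3.33 CPM against 7.42 and 9.73 CPM (log2 fold change -1.20 ± 0.28), and ZNF518A was lower as well. The lower ZNF654 and ZNF678 have 36.5% and 34.7% GC, and the higher ZNF460 has 44.7%. The median of this list was -0.05, with 206 genes above 0. ZNF654 was not called with the offset for transcript length (adjusted p = 0.41), and ZNF678 was at -0.87 with the GC content and length correction and at -0.86 with the replicate block added. All 3 named here lost their call without CX-5461 replicate 2, RBI2 replicate 1 or RBI2 replicate 2 (adjusted p of up to 0.162).

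GAPDH, PABPC1 and ATXN2 were not called between the compounds. The paper names PABPC1 (written PABC1) and ATXN2 as lower at all RBI2 time points, where its comparison was with the control. GAPDH was at 3135 and 3114 CPM with RBI2 and 3220 and 2971 CPM with CX-5461 (log2 fold change 0.01 ± 0.09, adjusted p = 0.944). PABPC1, the cytoplasmic poly(A)-binding protein, was at 1277 and 1422 CPM against 1502 and 1592 CPM (log2 fold change -0.20 ± 0.15, adjusted p = 0.419). ATXN2, a partner of PABPC1, was at 68.1 and 73.0 CPM against 60.5 and 69.5 CPM (log2 fold change 0.12 ± 0.22, adjusted p = 0.775).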

How the data were processed

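Sequenced RNA came from MDA-MB-231 cells, in 14 libraries that the sample labels put in 7 groups. Per the submitters' processing notes, the authors used STAR 2.7.6a, SAMtools 1.11, bedtools 2.29.2, Salmon 1.3.0 and DESeq2 1.28.1 on GRCh38. The deposited values are estimated counts per transcript, which the authors made with Salmon and neither normalized nor rounded. The deposited TPM values and effective lengths entered only the offset for average transcript length, which was an alternative setting.

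Transcripts were matched by identifier to GENCODE 44 (225662 of 228754), and estimated counts were summed per gene and rounded. Unmatched transcripts held 1.03% to 1.13% of the reads. edgeR 4.0.16 (R 4.3.3) with TMM and filterByExpr (minimum count 10) kept 15426 genes. The quasi-likelihood test was fitted to all 14 libraries with 1 coefficient per group, with Benjamini-Hochberg adjustment over all genes tested. Calls required an adjusted p below 0.05 and a log2 fold change of 1 or more in either direction. CPM values are TMM-scaled. Levels are relative within a library, and in bulk RNA fewer cells of a type and less RNA per cell cannot be told apart. Where a group had no reads, folds use a floor of 3 reads per group (counting error only). Ratios of single library pairs used log2(CPM + 0.5).

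On simulated data for this comparison with 15138 genes, 84 of 100 genes changed 3-fold and 97 of 100 changed 6-fold were recovered, with 6 false calls. The changed genes had a mean of at least 1 CPM, and the spread was that estimated by the fit. The simulation held no shift between libraries by GC content or length, so its false calls give no error rate for the real libraries. The members, the 24 gene lists and the tests were chosen with earlier results of these data known. Named genes were the 12 largest rises and 12 largest falls among called genes whose higher group reached a mean of 5 CPM without overlap of the groups, up to 3 called members of each list, up to 2 of each class other than protein coding in each direction, and GAPDH, PABPC1 and ATXN2. FOXK1, MIR23AHG, GABPB1-AS1, NEAT1, MT-RNR2, H2BC15, H2BC18, SNORA73B, RNA5S1, ZNF8 and ZNF518A were named after their values were seen. Alternatives were DESeq2 1.42.0, other scaling, filters and thresholds, a transcript length offset, a smooth correction for GC content and length, a replicate block, fewer libraries and fewer isoforms. The values of 1 named gene and the sequences of 2 RNAs are not reported here.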

Additional observations from a re-analysis of the deposited data

Results flagged for a closer look

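The difference between RBI2 and CX-5461 differed between the 120 min and 10 min labels for 209 genes by edgeR's test of the difference itself, more positive in 63 and more negative in 146. Of the named genes 5 were among them. SFXN3 was at 20.5 and 20.02 CPM with RBI2 and 41.1 and 39.97 CPM with CX-5461 at the 10 min label (adjusted p = 0.207), and the log2 fold changes differed by 3.41 (adjusted p = 0.0095). KCNQ1OT1 was higher with RBI2 at the 120 min label and lower at the 10 min label, at 10.9 and 13.5 CPM with RBI2 against 30.5 and 29.8 CPM with CX-5461 at the 10 min label, a difference of 2.39 (adjusted p = 0.000513). MT-RNR1 had a log2 fold change of -0.06 at the 10 min label and differed by 2.05 (adjusted p = 0.0112). ENSG00000228434 differed by 1.47 (adjusted p = 0.0419). ID2 was lower with RBI2 at both labels, with a log2 fold change of -2.81 at the 10 min label, and the difference was 1.04 (adjusted p = 0.0095).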

How the results depend on the processing

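Counts below are genes called in all, higher and lower with RBI2, where edgeR gave 258, 196 and 62. DESeq2 with the same filter gave 153 and 103 for all and higher, and without a filter at an unadjusted p 468, 362 and 106. edgeR at an unadjusted p gave 566, 445 and 121, without a fold limit 2490, 814 and 1676, without a filter 592, 422 and 170, and with at least 5 CPM 97, 71 and 26. The offset for average transcript length gave 168 and 117 for all and higher, the 12 treated libraries alone 409 and 338, and the 4 libraries of the comparison alone 393, 299 and 94. The GC content and length correction, alone or with the replicate block, left 26 lower genes. With other size factors 80.6% of the calls were higher, against 76.0%, and the median of all genes was 0.03. Leaving out 1 library at a time gave 5 to 395 in all, 4 to 310 higher and 1 to 170 lower, and without control replicate 1 or 2 there were 394 and 395.

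For the difference from the 10 min label (209) the values were 504 (DESeq2, unadjusted p), 660 (edgeR, unadjusted p), 136 (GC content and length), 115 (the same with the replicate block), 122 (at least 5 CPM), 552 (no filter), 651 (no fold limit), 45 (length offset), 385 (12 treated libraries), 105 (without retained-intron and nonsense-mediated-decay transcripts) and 45 to 419 with 1 library left out. For the 30 min label (0) they were 243, 21 (DESeq2, same filter), 344, 2, 2 (at least 5 CPM), 292 (no filter), 56 (12 treated libraries) and 0 to 80 with 1 library left out.

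The median length and GC content of the lower genes (6020 bases, 37.99%) were 6640.5 bases and 37.5% by the transcript with the most reads, 6757 and 37.7% for protein-coding genes, 2609 and 42.2% after the correction, and 37.3% GC with DESeq2. Those of the higher genes (2674 bases, 49.0%) were 49.2% GC by the transcript with the most reads, 3805 and 52.5% for protein-coding genes, 44.8% after the correction, and 3062 and 50.6% with DESeq2. With 1 of the 4 libraries left out the lower genes were at 1247 to 5949 bases and 38.04% to 44.2%, and the higher at 2307 to 5443 bases and 48.6% to 50.5%. The lncRNAs called higher (102) were 57 with DESeq2 and 231 at an unadjusted p, and the protein-coding genes called lower (56) were 99 at an unadjusted p. KCNQ1OT1 turned to -0.23 with the GC content and length correction (adjusted p = 0.228) and with the replicate block added to it (adjusted p = 0.252). Of the 46 named genes, 11 lost their call with the length offset and 8 without retained-intron and nonsense-mediated-decay transcripts. IL6ST and H4C16 had no value without those transcripts. Besides KCNQ1OT1, 7 lost their call with the GC content and length correction and 9 with the block added to it. With DESeq2 ENSG00000285920 lost its call (adjusted p = 0.121), and 4 others had no adjusted p. The cause of these shifts was not tested.

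The replicate numbers share only a number: replicate 1 deviations of the compounds had a correlation of 0.07, and over 21 pairs of groups it ran from -0.18 to 0.18. The replicate block gave 243 called genes, 182 higher and 61 lower, and RMRP lost its call (adjusted p = 0.0588). Some low RNAs rest on few reads, such as H4C16 with 24 and 7 reads.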
